A study of Mus musculus with 28 samples.

Results

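The comparison described here is the effect of an Rbm5 knockout in mechanically injured mouse cortex. Its members are the 14 arrays of 28 that came from injured animals, 7 titled KO-CCI and 7 titled WT-CCI, and they were taken by their titles alone. CCI, controlled cortical impact, is a model of traumatic brain injury in which a piston strikes the exposed cortex. Wild type (WT) and knockout (KO) mice of 12 to 15 weeks, 3 males and 4 females in each of these groups, received a craniotomy over the left parietal cortex and an impact at 6.0 m/s to a depth of 1.2 mm. Sham mice of the same genotypes, 7 WT and 7 KO, had anaesthesia and no craniotomy, and they serve below as a separate set of arrays for the same genotype comparison. Cortical tissue was taken 48 h after the procedure in all groups. The labels name the genotype as WT or KO and give no allele, deleted exon, strain, litter or Cre driver. The probes of a transcript cluster can lie outside a deleted part, so a residual Rbm5 signal is no measure of residual protein.

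RBM5 is an RNA-binding motif protein of the nucleus that joins the early spliceosome and influences which exons are kept in a messenger RNA. It carries RNA recognition motifs and a G-patch, a short segment that activates DEAH-box helicases such as DHX15. It is best known for regulating transcripts of cell death genes, among them Casp2, Fas and Cflar, and for acting as a growth suppressor in tumour cells. Impact on the cortex kills neurons, opens the blood-brain barrier, and draws in and activates glia, myeloid cells and vessel cells in the days that follow. An array that reads whole transcript clusters measures the total RNA of a gene, and exon-level signals were not used here.

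The deposited values are log2 signals, 1 per transcript cluster (a set of probes that usually stands for 1 gene), and 65956 clusters were tested after 6732 control rows were left out. Array medians lay between 5.79 and 5.90, so signals near or under this level were low and their folds are not exact. The mean over genes of excitatory neurons and cortical layers was 9.10 to 9.32 on the WT-CCI arrays and 9.04 to 9.27 on the KO-CCI arrays. Markers of neighbouring tissue were high on 7 of the 28 arrays, defined as a mean over striatum or choroid plexus genes more than 0.75 above the median array. These were WT-CCI replicates 13, 14, 16 and 35, KO-CCI replicates 22 and 40 and WT-Sham replicate 25. The striatum mean ran from 6.60 to 8.41 in WT-CCI and from 6.62 to 8.56 in KO-CCI. The choroid plexus mean ran from 5.56 to 7.27 and from 5.51 to 7.08. No member of either list was called between genotypes, where 0.972% of named genes were. Results are given below without these arrays, and also with the striatum and choroid plexus means as covariates over all 28 arrays. In bulk tissue, fewer cells of a type and less RNA per cell cannot be told apart.

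Genotype changed a small share of the transcriptome after injury, by small amounts. Of the 65956 transcript clusters, 431 (0.653%) were called at a limma adjusted p under 0.05, of which 149 (0.226%) were higher and 282 (0.428%) lower in knockout. Among clusters of named genes 173 of 17806 (0.972%) were called, 65 higher and 108 lower. The median size of a called difference was 0.37 on the log2 scale, against 0.064 over all clusters, and 112 called clusters differed by at least 0.5, 32 of them upward. The split between directions depended on the scaling: with every array centred on its median, 89 were higher and 331 lower. The 7 KO-CCI values lay all above or all below the 7 WT-CCI values for 274 clusters (0.415%), and for 187 of the 431 called ones. Without the 7 arrays high in striatum or choroid plexus markers, 187 clusters were called, of which 113 were among the 431. With the marker means as covariates 402 were called, of which 364 were among the 431. Among named genes, leaving out WT-CCI 14 or WT-CCI 15 left 69 called lower.

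**Figure D1:**
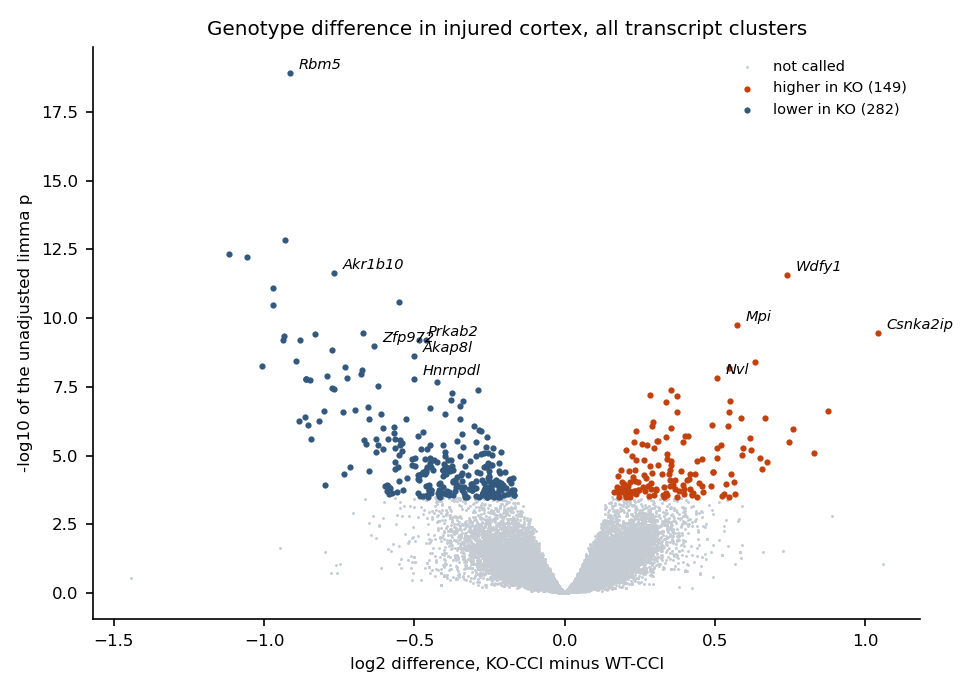
Each point is 1 of the 65956 transcript clusters, with its log2 difference (KO-CCI minus WT-CCI) on the horizontal axis and minus log10 of its unadjusted limma p on the vertical axis. The 149 called higher in knockout are orange, the 282 called lower are blue, and Rbm5 stands far above all others.

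The level of the deleted gene itself checks the genotype labels. Rbm5 log2 signal ran from 10.59 to 10.79, median 10.65, on the WT-CCI arrays and from 9.71 to 9.80, median 9.74, on the KO-CCI arrays. The knockout arrays were all lower and the groups did not overlap. The fall was 0.91 on the log2 scale (SE 0.038, 1.88-fold, limma adjusted p = 7.98e-15), and it remained called without any single CCI array. Of 35 RNA-binding motif family members with a transcript cluster of their own, Rbm5 alone was called, and the median difference of the list was 0.0052 against 0.0088 over all clusters. Rbm6, the neighbouring paralogue, read 9.52 to 9.61, median 9.57, in WT-CCI and 9.51 to 9.65, median 9.55, in KO-CCI, and was not called (difference 0.0051, SE 0.035, adjusted p = 0.982). Among the 24 measured genes of a list of those that surround Rbm5 on chromosome 9 none was called, where 0.972% of named genes were. The smallest p in the list was that of Slc38a3, an amino acid transporter (difference -0.31, adjusted p = 0.516). The list covers only part of the chromosome, where 4 clusters of named genes were called higher and 8 lower, Rbm5 included. P4htm and Dalrd3, called outside the list and picked after their values were seen, differed by -0.38 (adjusted p = 0.000135) and -0.42 (adjusted p = 0.043). Their distance from Rbm5 was not measured. No value is given for Rbm10, whose transcript cluster lists several genes.

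Among 41 measured splicing regulators and spliceosome components 1 gene was called, where 0.972% of all named genes were called. An unadjusted limma p under 0.05 was found for 9 of the 41, against 9.8% of all clusters. The called gene was Dhx15, the helicase that disassembles spent spliceosomes. It read 10.97 to 11.16, median 11.09, in WT-CCI and 11.24 to 11.47, median 11.35, in KO-CCI. All 7 knockout arrays lay above all 7 wild type arrays, and the rise was 0.28 (SE 0.038, 1.22-fold, adjusted p = 9.15e-05). It kept the call without the 7 arrays high in neighbouring markers (rise 0.28, adjusted p = 0.0354). The median over the 41 genes was 0.0031. Nova1, a neuronal splicing regulator, had the next smallest p (difference -0.27, adjusted p = 0.14), and Prpf8, the scaffold of the spliceosome core, differed by -0.14 (adjusted p = 0.24).

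Other called genes act on RNA, and those given here, apart from Hnrnpdl, were picked out after their values were seen, so they illustrate the calls and carry no count. Hnrnpdl, an hnRNP protein that binds AU-rich RNA and affects splicing, read 11.36 to 11.82, median 11.69, in WT-CCI and 10.92 to 11.27, median 11.18, in KO-CCI. The groups did not overlap, and it fell by 0.50 (SE 0.063, 1.42-fold, adjusted p = 3.04e-05). Srrm1, a serine and arginine rich coactivator of splicing, was higher without overlap, at 10.62 to 10.86 in KO-CCI against 10.27 to 10.54 in WT-CCI (rise 0.27, SE 0.047, adjusted p = 0.00251). Ccnl2, a cyclin that partners splicing-linked kinases, was also higher without overlap, at 9.46 to 9.68 against 9.25 to 9.38 (rise 0.29, SE 0.046, adjusted p = 0.000771). The SR protein kinases Clk1 and Clk4 rose by 0.28 (SE 0.062, adjusted p = 0.0287) and 0.27 (SE 0.057, adjusted p = 0.0189). Knockout values of Clk4 were all above the wild type values, while those of Clk1 overlapped. Luc7l, a component of the U1 particle, rose by 0.20, Srek1, a splicing regulator with an SR domain, by 0.17, and Thoc2, a subunit of the mRNA export complex, by 0.18, each without overlap between groups. Tia1, which binds U-rich introns and forms stress granules, rose by 0.19 with overlapping groups. Smg1, the kinase that starts nonsense-mediated decay, ran from 11.03 to 11.19 in KO-CCI and from 11.31 to 11.53 in WT-CCI. All knockout arrays were thus lower, by 0.29 (SE 0.038, adjusted p = 6.48e-05). The calls of 5 of these genes depended on single arrays. Clk1 lost its call without any of 6 arrays, WT-CCI 13, 34 and 36 and KO-CCI 22, 23 and 40 (adjusted p up to 0.0769), and Clk4 without WT-CCI 36 or KO-CCI 40 (up to 0.0524). Luc7l lost it without WT-CCI 34 or KO-CCI 22 (up to 0.0717), Srek1 without any of 7 arrays (up to 0.0856) and Tia1 without any of 9 arrays (up to 0.099). All the genes of this paragraph also lost their call in some fits other than single arrays left out, several of which used fewer arrays. Srek1 lost it in 8 such fits, Thoc2, Luc7l and Tia1 in 7 each and Clk1 and Clk4 in 6 each. Srrm1 lost it in 5, Ccnl2 and Smg1 in 3 each and Hnrnpdl in 2.

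Largest among the named genes that were lower, after Rbm5, were an aldehyde reductase, a zinc finger protein and several neuronal genes. Akr1b10, an aldo-keto reductase that detoxifies aldehydes, ran from 8.17 to 8.51, median 8.35, in WT-CCI and from 7.28 to 7.83, median 7.61, in KO-CCI. Every knockout array was lower, and the fall was 0.77 (SE 0.063, 1.70-fold, adjusted p = 2.95e-08). Zfp972, a zinc finger protein, ran from 9.86 to 10.27, median 9.95, and from 9.32 to 9.51, median 9.39, again without overlap (fall 0.63, SE 0.070, 1.55-fold, adjusted p = 3.71e-06). It fell by 0.50 without the 7 arrays high in neighbouring markers (adjusted p = 0.0137). Chrdl1, a secreted antagonist of bone morphogenetic proteins that astrocytes release, read 8.31 to 8.85, median 8.66, in WT-CCI and 7.56 to 8.29, median 8.05, in KO-CCI. The groups were apart, and it fell by 0.57 (SE 0.090, adjusted p = 0.000812). Akap8l, a nuclear anchoring protein for protein kinase A, fell by 0.50 without overlap, from a median of 10.94 to 10.42 (SE 0.057, adjusted p = 7.38e-06). Prkab2, the beta subunit of the energy sensor AMPK, fell by 0.49 without overlap, from a median of 9.68 to 9.20 (SE 0.052, adjusted p = 2.33e-06). Aifm3, a mitochondrial oxidoreductase related to apoptosis-inducing factor, was also apart between groups and fell by 0.47 (SE 0.076, adjusted p = 0.00109). Without the 7 arrays its fall was 0.38 (adjusted p = 0.0667). Emb, a membrane glycoprotein that escorts lactate transporters to the cell surface, and Morc2b, of the MORC family of ATPases, fell by 0.44 (SE 0.082, adjusted p = 0.0061) and 0.47 (SE 0.096, adjusted p = 0.0125) with overlapping groups. Without the 7 arrays they differed by -0.43 (adjusted p = 0.0517) and -0.41 (adjusted p = 0.158), close in size to the values above, and with the marker means as covariates both were called (-0.40 and -0.47).

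Higher in knockout were enzymes and nuclear proteins of varied roles. Csnka2ip, which binds a catalytic subunit of casein kinase 2, had the largest rise among named genes, 1.04 (SE 0.11, 2.06-fold, adjusted p = 1.88e-06). It read 5.06 to 5.71, median 5.48, in WT-CCI and 6.22 to 6.65, median 6.57, in KO-CCI. The groups did not overlap, and the wild type values all lay below the lowest array median, so the fold is not exact. Wdfy1, an endosomal protein with a FYVE domain, read 8.09 to 8.43, median 8.24, in WT-CCI and 8.81 to 9.20, median 8.998, in KO-CCI. All knockout arrays were higher, by 0.74 (SE 0.062, 1.67-fold, adjusted p = 2.95e-08). Mpi, the isomerase that feeds mannose into glycosylation, was 8.57 to 8.71, median 8.62, in WT-CCI and 9.01 to 9.35, median 9.20, in KO-CCI (rise 0.57, SE 0.058, adjusted p = 1.14e-06). Nvl, an ATPase of ribosome assembly, was 10.63 to 11.12, median 10.96, and 11.23 to 11.49, median 11.46 (rise 0.51, SE 0.064, adjusted p = 3.04e-05). Neither gene overlapped between groups. Pnck, a calmodulin-dependent kinase, read 8.87 to 9.38 in WT-CCI and 9.12 to 10.10 in KO-CCI. These ranges overlapped, and it rose by 0.66 (SE 0.13, adjusted p = 0.0107). Without the 7 arrays its rise was 0.61 (adjusted p = 0.11).

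**Figure D2:**
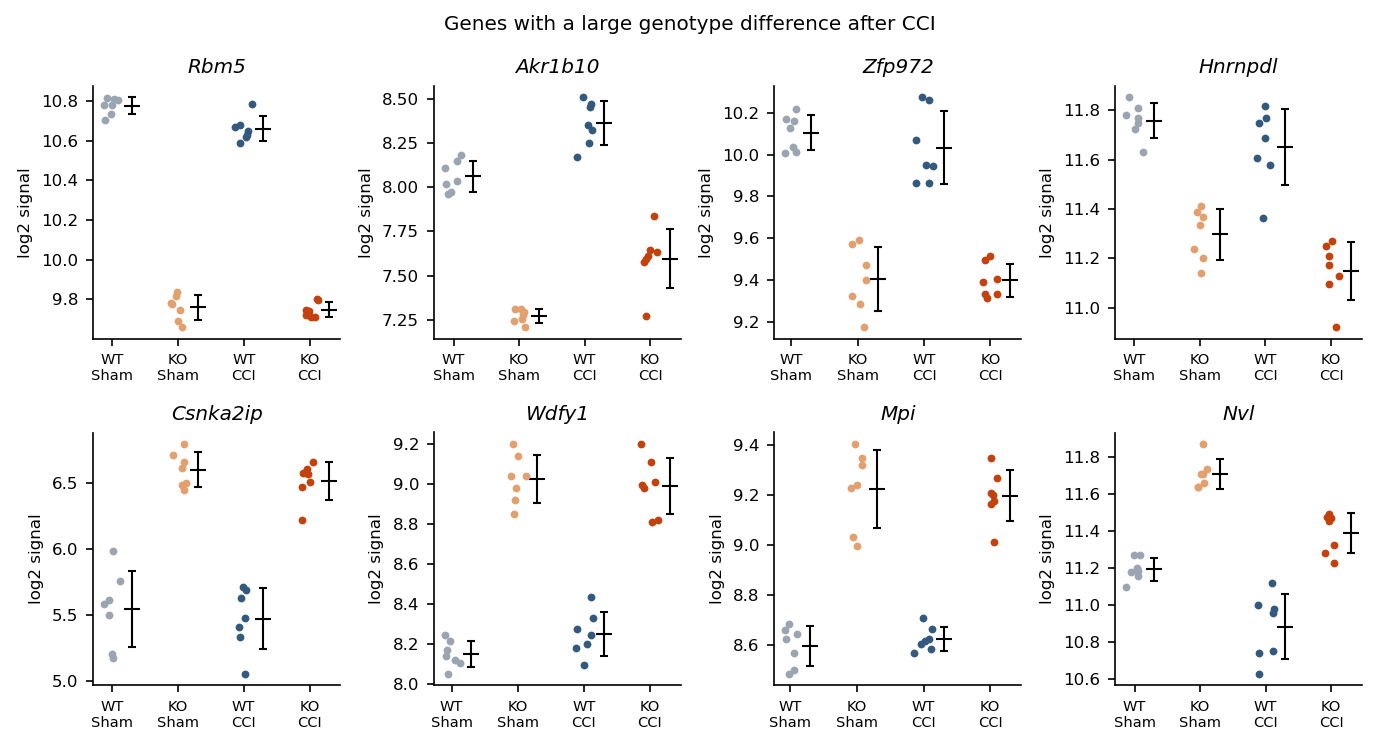
Log2 signal of 8 called genes on each of the 28 arrays, in 4 groups of 7, with the mean and SD as a black bar beside the points. In all 8 panels the KO-CCI points lie wholly above or wholly below the WT-CCI points, and the sham arrays separate by genotype in the same direction.

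Smaller rises followed the same pattern of separate or nearly separate groups. Scaper, an endoplasmic reticulum protein that binds cyclin A, rose by 0.37, Afg3l1, a subunit of a mitochondrial protease, by 0.35, and Impg2 and Mpp4, both known from photoreceptors, by 0.35 and 0.34. None of these 4 genes overlapped between groups (adjusted p from 6.54e-05 to 0.000856). Impg2 and Mpp4 were read at 5.25 to 5.93 and 5.10 to 5.61, near or below the array medians. Pinx1, a telomerase inhibitor with a G-patch, rose by 0.40 (SE 0.066, adjusted p = 0.00146), Ints6l, of the Integrator complex, by 0.39 (SE 0.067, adjusted p = 0.00209) and Tgm3, a transglutaminase, by 0.39 (SE 0.078, adjusted p = 0.0119), each with some overlap. Oacyl, annotated as an acyltransferase, rose by 0.35 without overlap (SE 0.069, adjusted p = 0.00875). Cyp4f15, a cytochrome P450 of fatty acid oxidation, and Ppil6, of the cyclophilin family, rose by 0.37 and 0.36 (adjusted p = 0.0204 and 0.0277). Cyp4f15 lost its call without WT-CCI 34, KO-CCI 23 or KO-CCI 41 (up to 0.0552), and Ppil6 without any of WT-CCI 13 and 34 and KO-CCI 21, 22, 23 and 24 (up to 0.0712). The DNA damage kinases Atm and Atr, chosen after their values were seen, rose by 0.26 (SE 0.045, adjusted p = 0.00243) and 0.24 (SE 0.038, adjusted p = 0.00104), and all KO-CCI values of both lay above all WT-CCI values. Mtor, the growth kinase of the same family, fell by 0.26 without overlap (SE 0.046, adjusted p = 0.0028).

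Cdh5 and Pecam1, genes of blood vessel endothelium, were lower in injured knockout cortex. They were the 2 called of 20 measured endothelial markers, where 0.972% of named genes and 0.653% of all clusters were called. Of the 20 markers 19 lay below 0, against 8678 of 17806 named genes, and their median difference was -0.19 against 0.0021 over named genes. Cdh5, the cadherin of endothelial junctions, read 8.88 to 9.46, median 9.21, in WT-CCI and 8.20 to 9.05, median 8.69, in KO-CCI. Most knockout arrays were below the wild type range, with overlap, and the fall was 0.49 (SE 0.10, 1.40-fold, adjusted p = 0.0197). Pecam1, the platelet and endothelial adhesion molecule, read 8.21 to 8.67, median 8.43, and 7.81 to 8.34, median 8.20. It fell by 0.34, also with overlap (SE 0.074, adjusted p = 0.0228). Among the 18 members not called, Vwf, the clotting carrier stored by endothelium, differed by -0.42 (adjusted p = 0.057), Emcn by -0.27 (adjusted p = 0.082) and Slc2a1, the glucose transporter of the barrier, by -0.36 (adjusted p = 0.2). Over the list, the array means ran from 8.28 to 8.58 in WT-CCI and from 8.03 to 8.36 in KO-CCI.

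Further vessel genes were called outside that list. Ptprb, the endothelial receptor phosphatase that restrains Tie2, read 9.20 to 9.70, median 9.40, in WT-CCI and 8.44 to 9.28, median 9.09, in KO-CCI. The ranges overlapped slightly, and it fell by 0.49 (SE 0.11, adjusted p = 0.0212). The next genes were picked after their values were seen. Eng, a coreceptor for TGF-beta ligands in endothelium, read 8.55 to 9.01, median 8.91, in WT-CCI and 8.23 to 8.60, median 8.50, in KO-CCI (fall 0.39, SE 0.078, adjusted p = 0.0117). Adgrl4, an adhesion G protein-coupled receptor of endothelium, fell by 0.38 (SE 0.092, adjusted p = 0.0464). Adgrf5, a related receptor, and Epas1, the hypoxia-inducible factor that is abundant in vessels, fell by 0.37 (SE 0.081, adjusted p = 0.0238) and 0.31 (SE 0.069, adjusted p = 0.0255). Nid1, which links laminin and collagen in basement membranes, fell by 0.24 (SE 0.056, adjusted p = 0.0376), and Flna, an actin crosslinker, fell by 0.37 (SE 0.080, adjusted p = 0.0223). In each of these genes the knockout arrays lay lower and overlapped the wild type arrays.

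**Figure D3:**
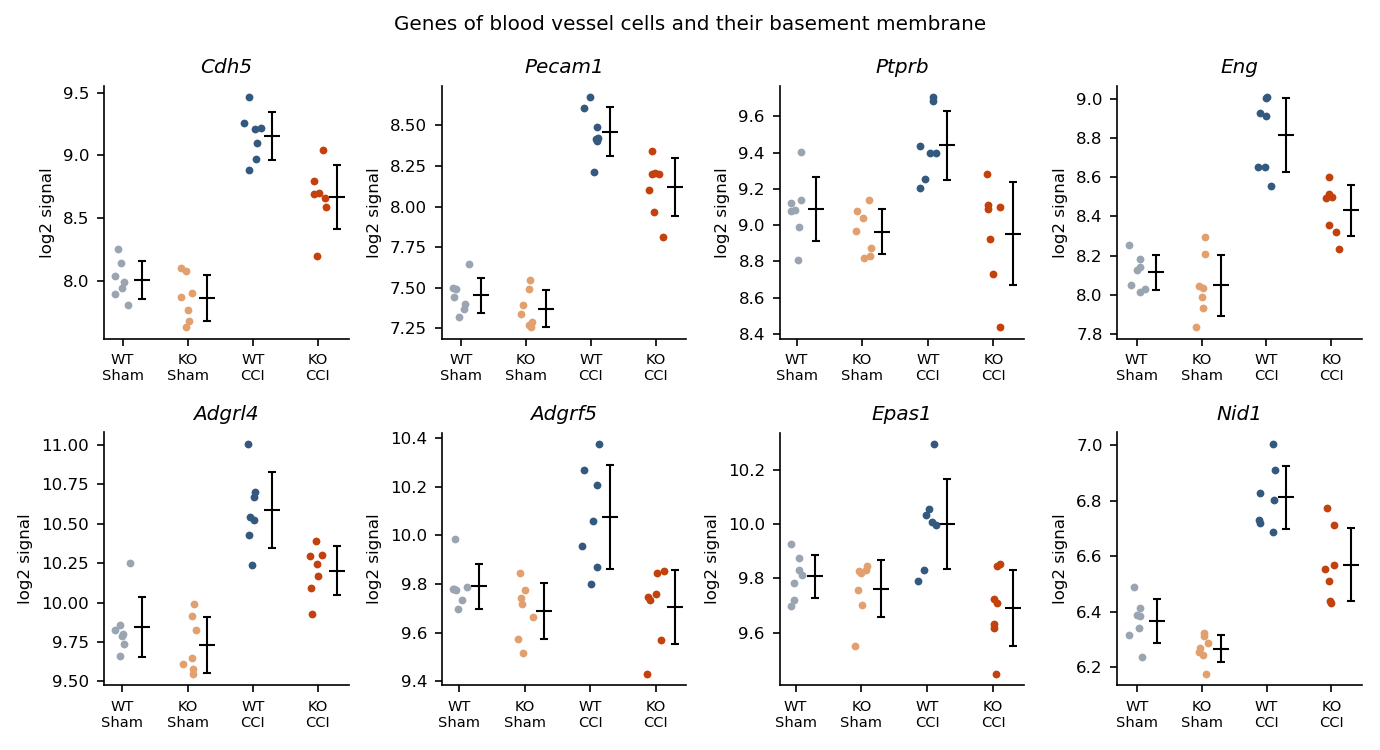
Log2 signal of 8 genes of vessel cells and their basement membrane on each of the 28 arrays, in 4 groups of 7, with the mean and SD as a black bar. Cdh5, Pecam1, Ptprb, Eng, Adgrl4, Adgrf5, Epas1 and Nid1 are lower in KO-CCI than in WT-CCI with overlapping points, and the 2 sham groups lie close together.

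The endothelial calls were fragile. Cdh5 was not called without WT-CCI 15 (adjusted p = 0.0522), Pecam1 without WT-CCI 15, KO-CCI 21 or KO-CCI 41 (up to 0.0574), and Ptprb without WT-CCI 15, WT-CCI 16 or KO-CCI 41 (up to 0.0577). Without the 7 arrays high in striatum or choroid plexus markers, 0 of the 20 markers were called, 18 lay below 0 and the median was -0.24, with Cdh5 at -0.60 (adjusted p = 0.127) and Pecam1 at -0.45 (adjusted p = 0.0721). With the marker means as covariates both kept their calls (Cdh5 -0.49, adjusted p = 0.0312, Pecam1 -0.34, adjusted p = 0.0343) and the list median was -0.18. With the filter on brightness or on annotation 4 markers were called. With only the 14 CCI arrays in the fit, 0 of the 20 passed (Cdh5 adjusted p = 0.144, Pecam1 adjusted p = 0.171). Across the single arrays left out in turn, 0 to 4 of the 20 were called, and 17 to 19 lay below 0. Eng kept its call without any single CCI array. Adgrl4 lost it without any of 12 arrays (adjusted p up to 0.12), Nid1 without any of 9 (up to 0.101), Epas1 and Flna each without any of 6 (up to 0.0722 and 0.061) and Adgrf5 without any of 5 (up to 0.0677). After sham, the median of the 20 markers was -0.054 and none was called. The difference between the genotype differences did not pass for Cdh5 (-0.34, adjusted p = 0.779) or Pecam1 (-0.27, adjusted p = 0.779). With injury, Cdh5 rose by 1.14 in wild type and by 0.80 in knockout, and Pecam1 by 1.01 and 0.74, from comparisons that share the CCI arrays.

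The promoters of Eng and Adgrl4 are shown as examples of the called vessel genes. The RefSeq sequences of GRCm38.p6 cover the 250 bases before the start of Eng (chr2:32646345-32646594, + strand) and of Adgrl4 (chr3:151437632-151437881, + strand). Capitals mark GGAA and its reverse complement TTCC, the core that ETS factors bind, searched on both strands.
Eng: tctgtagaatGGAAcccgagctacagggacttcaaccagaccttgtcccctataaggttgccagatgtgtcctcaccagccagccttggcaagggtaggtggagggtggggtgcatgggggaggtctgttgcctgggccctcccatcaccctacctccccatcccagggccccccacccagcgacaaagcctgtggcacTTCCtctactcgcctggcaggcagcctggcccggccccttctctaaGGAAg
Adgrl4: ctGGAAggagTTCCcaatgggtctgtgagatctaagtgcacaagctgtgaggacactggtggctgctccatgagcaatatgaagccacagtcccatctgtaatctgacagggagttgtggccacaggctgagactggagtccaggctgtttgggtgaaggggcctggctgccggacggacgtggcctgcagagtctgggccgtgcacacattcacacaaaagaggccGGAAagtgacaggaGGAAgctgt
Eng holds 3 matches and Adgrl4 holds 4. Of the 32851 promoters in the table, 93.4% hold at least 1 match in the same window, with a median of 3, and 54.7% and 33.4% hold at least as many as Eng and Adgrl4. The matches describe these letters only.

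Several neuronal genes were lower as well. Among 48 measured ion channel genes 3 were called, all lower, where 0.607% of named genes and 0.428% of all clusters were called lower. Scn1a, a sodium channel abundant in parvalbumin interneurons, read 11.98 to 12.63, median 12.42, in WT-CCI and 11.66 to 12.32, median 11.96, in KO-CCI. The ranges overlapped, and it fell by 0.41 (SE 0.097, adjusted p = 0.0396). Scn8a, the main sodium channel of the axon initial segment, fell by 0.26 (SE 0.051, adjusted p = 0.00893), and Kcnq3, a subunit of the M-current, fell by 0.23 (SE 0.053, adjusted p = 0.0404). The list had a median of -0.066, and 34 of 48 lay below 0. Kcnab3, a beta subunit of voltage-gated potassium channels, fell by 0.59 (SE 0.13, adjusted p = 0.0283) from a range of 8.10 to 8.999 in WT-CCI to 7.57 to 8.39 in KO-CCI. Vamp1, the vesicle SNARE of fast synapses, read 10.22 to 10.61, median 10.56, and 9.62 to 10.27, median 10.01. The groups overlapped only between 10.22 and 10.27, and it fell by 0.56 (SE 0.095, adjusted p = 0.00181). Hapln4, a link protein of perineuronal nets, fell by 0.47 (SE 0.11, adjusted p = 0.0466). Rasgrf2, a Ras exchange factor of upper-layer neurons and the only called member among 25 excitatory and layer markers, fell by 0.54 (SE 0.097, adjusted p = 0.00347).

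Further neuronal and axonal genes were picked after their values were seen. Syt2, the calcium sensor of fast synapses, read 7.60 to 8.07, median 7.80, in WT-CCI and 7.08 to 7.54, median 7.35, in KO-CCI. The groups were apart, with a fall of 0.46 (SE 0.087, adjusted p = 0.00596). Nefm, the medium neurofilament, was also apart (fall 0.38, SE 0.072, adjusted p = 0.00619), and Nefl, the light neurofilament, overlapped (fall 0.35, SE 0.064, adjusted p = 0.00501). Nefh, the heavy neurofilament, had a difference of -0.30 and was not called (adjusted p = 0.143). Cntnap1, of the paranodal junction, fell by 0.36 (SE 0.080, adjusted p = 0.0297). Pvalb itself, the marker of fast-spiking interneurons, differed by -0.38 (adjusted p = 0.157). None of 21 inhibitory neuron markers was called, where 0.972% of named genes were. Of those 21, 14 lay above 0, the median was 0.055 and the highest was 0.39.

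This group was also fitted without the 7 arrays high in neighbouring markers. There 0 of 48 ion channels were called, 25 lay below 0 and the median was -0.0063. With the marker means as covariates instead, 3 were called lower, 34 lay below 0 and the median was -0.0735, with Scn1a at -0.43 (adjusted p = 0.0383). The 2 fits thus gave different values for this list. In the fit without the 7 arrays, Scn1a differed by -0.13 (adjusted p = 0.748), Kcnab3 by -0.22 (adjusted p = 0.687) and Vamp1 by -0.35 (adjusted p = 0.338). Nefm differed there by -0.25 (adjusted p = 0.36) and Syt2 by -0.37 (adjusted p = 0.223). Rasgrf2 differed by -0.55 (adjusted p = 0.0509) and Scn8a by -0.20 (adjusted p = 0.269) in the same fit without the 7 arrays. With only the 14 CCI arrays in the fit, or after quantile normalization, 0 of the 48 passed, and with array weights 1 did. Single arrays decided some calls. Scn1a lost its call without any of 11 arrays (adjusted p up to 0.103), Hapln4 without any of 10 (up to 0.119), Kcnq3 without any of 8 (up to 0.0973), Cntnap1 without any of 6 (up to 0.0815) and Kcnab3 without any of 5 (up to 0.0806). Vamp1, Rasgrf2, Scn8a, Syt2, Nefm and Nefl kept theirs without any single CCI array.

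Mbp, a myelin gene, was lower in injured knockout cortex. All 17 measured genes of oligodendrocytes and myelin were below 0, with a median difference of -0.27. Of the 17, 1 was called, where 0.607% of named genes were called lower. Mbp, the basic protein that compacts myelin, read 11.83 to 12.12, median 11.94, in WT-CCI and 10.94 to 11.87, median 11.67, in KO-CCI. The ranges just overlapped, and the fall of 0.42 was close to the threshold (SE 0.10, adjusted p = 0.049) and was lost without any of 13 of the 14 CCI arrays, all but KO-CCI 42 (adjusted p up to 0.121). Mobp, another myelin protein, differed by -0.60 (adjusted p = 0.13), Trf by -0.45 (adjusted p = 0.3) and Mag by -0.38 (adjusted p = 0.4). The mean over the list ran from 10.51 to 10.73 in WT-CCI and from 9.64 to 10.71 in KO-CCI, and KO-CCI 41 was the lowest array. Without KO-CCI 41 the list median was -0.16, with 15 of 17 below 0 and none called. After sham the list had a median of 0.22 with none called. For Mbp the difference between the genotype differences was -0.51 (unadjusted p = 0.00129, adjusted p = 0.713). In that contrast 14 of the 17 genes had an unadjusted limma p under 0.05, against 6.21% of all clusters, and none was called. The 17 genes were read on the same arrays, so the 14 are not separate tests. The median injury change of the list was 0.38 in wild type and -0.13 in knockout, from comparisons that share the CCI arrays. Of 11 oligodendrocyte precursor genes none was called, with a median of 0.015.

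The inflammatory and glial response to injury showed no called member between genotypes in any of its lists. This held for 28 reactive astrocyte genes (median -0.039), 26 of phagocytic microglia and macrophages (median -0.11), 13 of homeostatic microglia (median -0.10), 18 of infiltrating monocytes (median -0.16) and 17 of neutrophils (median -0.016). It held also for 14 complement genes, 31 interferon response genes, 35 chemokines and cytokines and 29 cell cycle genes. Over all named genes 0.972% were called, and lists of this length can hold no call at that share. In the cell cycle list 28 of 29 members lay below 0, with a median of -0.12, and in the homeostatic microglia list all 13 did. Unadjusted p was under 0.05 for 3 reactive astrocyte genes, 2 phagocyte genes, 1 monocyte gene and 1 cell cycle gene. Tnc, a matrix protein of reactive astrocytes, came closest, with 7.71 to 8.90, median 8.20, in WT-CCI and 7.15 to 8.20, median 7.83, in KO-CCI. The groups overlapped (difference -0.55, SE 0.14, adjusted p = 0.0821). Fn1, fibronectin, differed by -0.62 (SE 0.19, adjusted p = 0.174).

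Cell death genes, the group for which RBM5 is best known, showed no called member among 38 caspases and apoptosis regulators. Their median difference was -0.043, and 2 had an unadjusted limma p under 0.05, against 9.8% of all clusters. Over all named genes 0.972% were called, and a list of 38 can hold no call at that share. Casp2, an initiator caspase, read 7.97 to 8.11 in WT-CCI and 7.95 to 8.15 in KO-CCI (difference -0.011, SE 0.037, adjusted p = 0.961). Cflar, which encodes the caspase 8 inhibitor c-FLIP, differed by 0.036 (SE 0.053, adjusted p = 0.889), and Fas, a death receptor, by -0.16 (SE 0.10, adjusted p = 0.646). All 3 overlapped between groups. These are levels of whole genes and do not read the isoforms. None of 22 p53 pathway genes was called either, at the same share over all named genes. Ccng1, a cyclin that p53 induces, had the smallest p among the 22 (difference -0.19, adjusted p = 0.313).

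**Figure D4:**
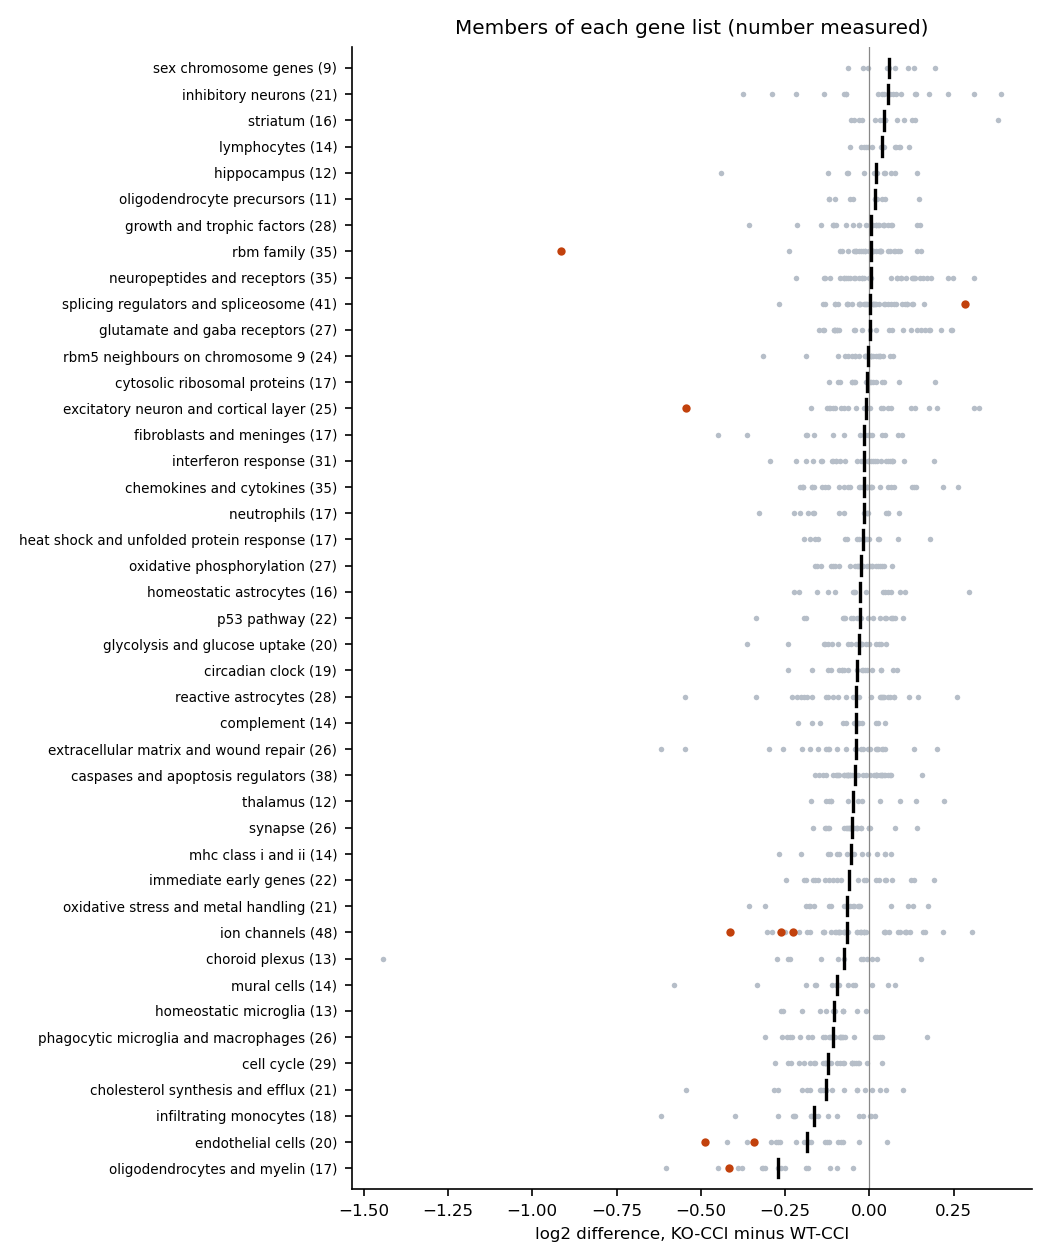
Each row is 1 of 43 gene lists with the number of measured members in brackets, and each point is 1 member's log2 difference (KO-CCI minus WT-CCI), orange where called, with the list's median as a black bar. Called members are seen in 6 lists, and the medians of the endothelial list (-0.19) and the oligodendrocyte and myelin list (-0.27) lie farthest below 0.

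Small nucleolar RNAs, which guide chemical modification of ribosomal and spliceosomal RNA and are mostly cut from introns, had calls in 1 direction. Of 964 rows 49 (5.08%) were called, all lower, against 0.653% of all clusters, although the median over the 964 rows was -0.0095. On chromosome 7, 33 of 205 rows were called, and the median over the 205 was -0.18. The 33 called rows had 20 distinct value profiles, so near-identical copies share probes there and these rows are not separate measurements. Their differences ran from -0.56 to -0.24. Elsewhere 16 of 759 were called, including Scarna9, a guide RNA of Cajal bodies, and Snord110, a C/D box guide. Scarna9 read 9.29 to 10.54, median 9.92, in WT-CCI and 8.77 to 9.54, median 9.31, in KO-CCI. The groups overlapped, and it fell by 0.74 (SE 0.15, adjusted p = 0.0143). Snord110 read 13.94 to 14.60 and 12.47 to 14.09, with a fall of 0.80 (SE 0.18, adjusted p = 0.0281), and its call disappeared without any of 6 arrays (up to 0.0712). The count of 49 depended on single arrays and on the fit. Leaving out single CCI arrays gave 24 to 69 called lower, with 26 without WT-CCI 13, 24 without WT-CCI 14, KO-CCI 22 or KO-CCI 24, 30 without WT-CCI 36 and 32 without KO-CCI 40. With the marker means as covariates 32 were called lower, and without the 7 arrays high in neighbouring markers 6 were called lower and 3 higher. In the 25 to 42 run of title numbers fitted alone, 0 rows were called, in a fit that called 15 clusters in all. After sham, 119 of the 964 rows were called, where 1.28% of all clusters were. Of the 49 called after CCI, 40 were called after sham too, and all 49 lay below 0 there.

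MicroRNA rows, 964 in number, had 1 call (0.104%). Mir6948 read 6.17 to 6.74, median 6.45, in WT-CCI and 6.70 to 7.10, median 6.82, in KO-CCI. The ranges overlapped slightly, and it rose by 0.42 (SE 0.086, adjusted p = 0.0141), while after sham it differed by -0.064 (adjusted p = 0.859). The row does not separate the hairpin's products. Both mature arms from RefSeq on GRCm38.p6 (chr14:54643050-54643070 and chr14:54643084-54643105, - strand) follow, as the sole called microRNA, with the seed, bases 2 to 8, in capitals.
mmu-miR-6948-3p: uGUCCUUCcugucugaccaca
mmu-miR-6948-5p: aGUUCAGAcaggacugugacac

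Calls were unevenly spread over chromosomes. Chromosome 2 had 81 of 5468 clusters called (1.48%), 63 of them lower, chromosome 8 had 36 (1.12%) and chromosome 7 had 46 (0.995%). Over all clusters the share was 0.653%. No gene was listed for 40 of the 63, or for 14 of the 28 called lower on chromosome 8. On chromosome 7, 33 of the 46 were small nucleolar RNA rows with 20 distinct value profiles, so its share counts some measurements more than once. Among 1416 clusters of named genes on chromosome 7, 1 was called higher and 7 lower, where 0.972% of all named genes were called. Chromosome 9, which carries Rbm5, had 26 (0.783%). The genes of chromosome 2, without the rows that list no gene, were put in RefSeq order and divided into 5 equal parts. The last part had 9 genes called lower and 1 higher, and the second had 2 lower and 8 higher. The 8 had 4 distinct value profiles, since 5 predicted models next to each other, Gm13693, Gm13694, Gm13696, Gm13697 and Gm13698, carry the same values and are not separate measurements. Zfp972 lies on this chromosome, as do several called predicted models with neighbouring numbers, among them Gm14415 (fall 0.86, adjusted p = 0.000436). Without the 7 arrays high in neighbouring markers, chromosome 2 had 28 lower and 2 higher, and with the marker means as covariates 60 lower and 10 higher. Across single CCI arrays left out it had 49 to 63 lower and 8 to 16 higher. Rows with no gene listed accounted for 161 of all 431 calls (0.485% of 33206 such rows) and are counted without names.

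Sham arrays gave the same comparison in other animals. There 847 clusters (1.28%) were called, 335 higher (0.508%) and 512 lower (0.776%), and the groups did not overlap for 708 (1.07%). Of the 431 called after CCI, 415 (96.3%) had the same sign after sham, against 54.4% of all clusters, and 243 were called after sham too, all with the same sign, 73 higher and 170 lower. That is 56.4% of the CCI calls and 28.7% of the sham calls. Rbm5 differed by -1.02 after sham and -0.91 after CCI, Akr1b10 by -0.79 and -0.77, Zfp972 by -0.70 and -0.63, Csnka2ip by 1.06 and 1.04, Wdfy1 by 0.88 and 0.74, and Mpi by 0.64 and 0.57. In each of these 6 genes the sham groups did not overlap either. Of the named genes called after CCI, 87 were called in both comparisons and 86 after CCI only, which does not show that the latter differ between comparisons. The 16 called clusters with opposite signs included Shisa3, a membrane adaptor that restrains Wnt and FGF receptors (rise 0.29 after CCI, sham difference -0.17), Cyp2j12, a cytochrome P450 (-0.37 and 0.058), and Mbp (-0.42 and 0.097).

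**Figure D5:**
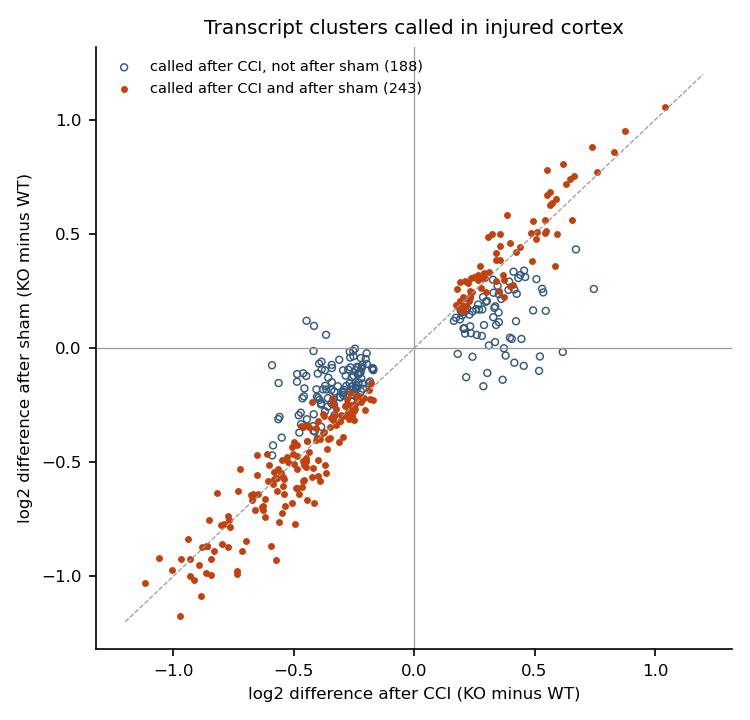
Each point is 1 of the 431 transcript clusters called after CCI, with its log2 knockout minus wild type difference after CCI on the horizontal axis and after sham on the vertical axis. Filled orange points are the 243 also called after sham, and 415 of 431 have the same sign on both axes, around the dashed line of equality.

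Whether the genotype difference changed with injury was tested directly. No cluster was called in (KO-CCI minus WT-CCI) minus (KO-Sham minus WT-Sham) by limma (0 of 65956), with a smallest adjusted p of 0.198, while 4097 (6.21%) had an unadjusted p under 0.05. Among the 431 calls, 64 had an unadjusted p under 0.05. Shisa3 had the smallest p among named genes (difference 0.45, unadjusted p = 3.99e-05, adjusted p = 0.634). It read 5.76 to 6.09, median 5.81, in WT-CCI and 6.06 to 6.40, median 6.12, in KO-CCI, near the array medians and with slight overlap, and its CCI call was lost without any of 6 arrays (adjusted p up to 0.0883). The next smallest p belonged to Rpl34-ps1, Esp3, Dnm2 and Tmc1, all at adjusted p = 0.713. Where only clusters with a gene in the annotation were tested, 1 was called, the noncoding RNA 4930548J01Rik (difference 0.43, adjusted p = 0.0493, against 0.198 over all clusters). It differed by 0.20 after CCI and by -0.22 after sham, at a mean signal of 4.59, under the array medians.

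The comparison was also made within each sex and within each run of title numbers. In males 49 clusters (0.0743%) and in females 71 (0.108%) were called, and the difference between sexes had 0 calls, a smallest adjusted p of 0.502, and 2575 clusters (3.9%) at an unadjusted p under 0.05. Rbm5 fell by 0.94 in males (SE 0.060) and by 0.90 in females (SE 0.052). Sample titles run from 1 to 24 and from 25 to 42, with 4 and 3 arrays of each injured group, and nothing in the labels says that a run is a batch. Of 125 clusters called in the first run, 117 had the same sign in the second, against 52.9% of all clusters. The second run had 15 calls, all of the same sign in the first, and 11 were called in both.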

How the data were processed

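Tissue from 28 mice was measured on MTA 1.0 arrays from 100 ng of total RNA each, per the labels' protocols. The deposited table holds log2 signal per transcript cluster, a unit read from the values, which lay between 2.21 and 19.9. How the authors normalized these values, and with which software or genome build, was not given in the sources used here. They were used as they stand. Gene names came from the platform annotation supplied with the table, updated through the RefSeq genes of GRCm38.p6 for 827 rows. No gene was listed for 33206 rows, 1670 rows listed several genes and were not named, and 94 rows whose chromosome disagreed with that of their gene were not named. A gene with several clusters was represented by the brightest.

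Differences were fitted with limma 3.58.1 (lmFit, eBayes, two-sided) in R 4.3.3 on all 28 arrays, with 4 group means and additive sex, and p-values were adjusted by Benjamini-Hochberg over the 65956 clusters. Calls required an adjusted p below 0.05. The model by sex had 8 means, 1 for each sex in each group. Errors are SE of the fitted log2 difference, n = 7 per group. The labels say that 7 animals were compared per group. Arrays carry no depth, and their number limits the precision. The script was tested on simulated data. Tables and figures used Python 3.11.15, pandas 2.3.3, numpy 2.4.6 and matplotlib 3.10.9.

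The members and the 43 gene lists were chosen with earlier results of these data known. Named were the 15 largest called differences each way, up to 3 called members per list and direction or the smallest p where a list had none, the 10 largest each way called after both procedures, the 5 smallest p for the interaction and for sex, and the genes Cflar, Fas, Casp2, Rbm10, Rbm6 and Rbm5. Small RNAs and predicted models were described mainly by counts. Those named are examples and not a list of the largest differences. Genes said to be picked after their values were seen lie outside this rule, as do list members given with values that were not called. Alternatives were each run of title numbers alone or the run as a covariate, no sex term, only the CCI arrays, quantile normalization, median centring, a variance trend, array weights, filters on brightness and annotation, stricter thresholds, marker means as covariates, and leaving out arrays.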

Additional observations from a re-analysis of the deposited data

Results flagged for a closer look

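Over 240 groups of 7 values, those of the named genes and of 6 marker list means in WT-CCI and KO-CCI, 8 held a highest or lowest array whose gap to its neighbour, divided by the range of the group, passed Dixon's critical value of 0.568. Chance alone gives about 1 in 20 such groups. On KO-CCI 40 the lowest value of Chrdl1 was 7.56, the lowest of Vamp2 was 10.63 (next 10.80), the highest of Kcne2, a potassium channel subunit of choroid plexus, was 7.94 (next 7.27), and the mean over the choroid plexus list was 7.08 (next 5.86). This array is 1 of the 7 high in striatum or choroid plexus markers. On KO-CCI 21 the lowest value of Csnka2ip was 6.22 (next 6.47), still above every WT-CCI array. On KO-CCI 22 the highest value of Idi1, an enzyme of cholesterol synthesis, was 9.57 (next 9.30). On KO-CCI 41 the highest value of Shisa3 was 6.40 (next 6.17). On WT-CCI 35 the lowest value of Slc38a3 was 9.73 (next 10.52). The calls of Chrdl1 and Csnka2ip did not depend on any single CCI array, and that of Shisa3 was lost without KO-CCI 41 among others. The causes of these values were not tested.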

How the results depend on the processing

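Of 64 called genes followed through every alternative, none reversed its direction, 41 kept their call without any single CCI array and 23 lost it without at least 1. Over the single arrays left out, 298 to 508 clusters were called, 104 to 196 higher and 187 to 312 lower, and the difference between the genotype differences had 0 each time. Fitting only the 14 CCI arrays gave 131 calls (45 higher, 86 lower), of which 128 were among the 431, and 21 of the 64 genes kept their call. Title numbers 1 to 24 alone gave 125 (36 higher, 89 lower) and 25 to 42 alone gave 15 (1 higher, 14 lower). Leaving out the 7 arrays high in striatum or choroid plexus markers gave 187 (59 higher, 128 lower), with 23 of the 64 kept. Males alone gave 49 (13 higher, 36 lower) and females alone 71 (25 higher, 46 lower). At an adjusted p under 0.01 there were 181 (56 higher, 125 lower), and with a difference of at least 0.5 on the log2 scale 112 (32 higher, 80 lower). Centring each array on its median gave 89 higher and 331 lower. The filter on annotated clusters gave 1 call, 4930548J01Rik, for the difference between the genotype differences. The other alternatives kept the counts over all clusters, higher and lower together, within 1.5 times of 431, with 402 for the marker means as covariates, where 62 of the 64 genes kept their call. Counts within classes moved more. Small nucleolar RNA rows called lower went from 49 to 79 with the brightness filter, 77 with the annotation filter, 76 with median centring, 32 with quantile normalization and with the covariates, 31 with array weights and 12 with only the CCI arrays. Named genes called higher went from 65 to 110, 114 and 105 with the brightness filter, the annotation filter and quantile normalization, and to 38 with median centring. Named genes called lower went from 108 to 175 and 163 with those filters. Called endothelial markers went from 2 to 4 with either filter. Leaving out WT-CCI 14 gave the lowest count of clusters called lower, 187. Fits on fewer arrays have fewer degrees of freedom, and the share of each cause in the lower counts was not tested. No paired analysis was possible because the groups share no title number. With 7 arrays a group and called differences of median size 0.37, smaller differences may have gone uncalled. The 23 background control rows had medians of 3.41 to 3.66 per array, under the medians of 5.79 to 5.90 over all clusters. No signal was tested against these rows, so single signals near the array medians were not shown to be above background.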
